A study of Mus musculus with 8 samples.

Results

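The disaccharidases and sugar transporters of the enterocyte were followed here in the proximal small intestine of mice without epithelial Pdx1. The set was defined by name as Lct, Sis, Mgam, Treh, Slc5a1, Slc2a2, Slc2a5 and Slc2a7, and every probe set whose single gene symbol in the platform annotation was in that set was a member. Of the 8 genes, 6 were matched by 7 probe sets, out of 45037 probe sets tested on the array. Sis, which encodes the sucrase-isomaltase of the brush border, and Slc2a7, which encodes a relative of the fructose transporter, matched no probe set by this rule and were not analysed here.

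The study compared 4 knockout with 4 control mice, each sample being whole tissue on its own array. Knockout mice were Pdx1flox/flox;VilCre, with Pdx1 exon 2 floxed and Cre driven by 12.4 kb of the mouse villin 1 promoter. Control mice were Pdx1flox/flox without the transgene, so the floxed alleles were common to all 8 animals, and loss of Pdx1 cannot be told apart from the presence of Cre. All were males aged 6 months, described as littermates, on a diet with 4.5% fat, and the tissue was the 5 cm of intestine next to the pylorus. Whole tissue also holds muscle, stroma, immune cells and any attached stomach or pancreas, so fewer enterocytes and less transcript per enterocyte cannot be told apart.

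Pdx1 encodes a transcription factor with a homeodomain that acts in the pancreas and the upper intestine. Starch and sugars are cut to single sugars by disaccharidases anchored in the brush border: lactase (Lct) splits lactose, maltase-glucoamylase (Mgam) splits short starch fragments, and trehalase (Treh) splits trehalose. Glucose and galactose then enter the enterocyte with sodium through SGLT1 (Slc5a1), fructose enters through GLUT5 (Slc2a5), and these sugars leave mainly through GLUT2 (Slc2a2) in the basolateral membrane. Lactase is known to decline after weaning in most mammals, while the fructose transporter is known to respond to dietary fructose.

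Some members varied together across samples: Lct with Treh, Slc5a1 with Slc2a5 and Slc5a1 with Slc2a2. They are shown by the 250 bases before their annotated transcription start. The factor removed binds DNA, but any part of it in this shared variation was not tested. The sequences are from RefSeq, build GRCm38.p6, and run 5′ to 3′ on the strand of the gene. Capitals mark TAAT or its reverse complement ATTA, the core that homeodomain proteins bind. The Lct window is chr1:128328319-128328568 on the minus strand, that of Treh is chr9:44672983-44673232 on the plus strand, and that of Slc5a1 is chr5:33103969-33104218 on the plus strand. The Slc2a5 window is chr4:150119094-150119343 and that of Slc2a2 is chr3:28697653-28697902, both on the plus strand.
Lct: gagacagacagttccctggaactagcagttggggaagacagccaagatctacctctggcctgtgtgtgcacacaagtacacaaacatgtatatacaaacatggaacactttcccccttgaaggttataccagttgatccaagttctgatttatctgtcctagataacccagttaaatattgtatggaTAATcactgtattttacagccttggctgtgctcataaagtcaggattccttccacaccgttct
Treh: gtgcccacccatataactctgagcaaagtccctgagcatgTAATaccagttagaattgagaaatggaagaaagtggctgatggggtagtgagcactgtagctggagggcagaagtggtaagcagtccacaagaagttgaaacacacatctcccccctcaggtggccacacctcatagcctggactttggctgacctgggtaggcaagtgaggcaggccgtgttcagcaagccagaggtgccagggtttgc
Slc5a1: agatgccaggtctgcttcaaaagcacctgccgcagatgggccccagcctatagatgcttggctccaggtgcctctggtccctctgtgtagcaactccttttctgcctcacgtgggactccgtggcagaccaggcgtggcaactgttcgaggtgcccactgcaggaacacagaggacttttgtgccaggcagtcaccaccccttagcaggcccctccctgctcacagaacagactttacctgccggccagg
Slc2a5: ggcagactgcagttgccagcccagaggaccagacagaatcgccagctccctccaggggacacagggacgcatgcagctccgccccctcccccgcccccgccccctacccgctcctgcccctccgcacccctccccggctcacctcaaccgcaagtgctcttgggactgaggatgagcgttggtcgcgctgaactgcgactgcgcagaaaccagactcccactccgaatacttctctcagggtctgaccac
Slc2a2: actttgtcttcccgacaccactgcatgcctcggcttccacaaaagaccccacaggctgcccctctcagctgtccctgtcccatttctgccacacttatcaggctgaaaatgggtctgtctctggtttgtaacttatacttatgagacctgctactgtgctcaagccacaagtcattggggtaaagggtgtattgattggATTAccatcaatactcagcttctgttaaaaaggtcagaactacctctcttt

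Lct, Treh and Slc2a2 each held 1 match to TAAT in this window, and Slc5a1 and Slc2a5 held 0. The windows of Mgam and Sis, not printed, held 5 matches each, some of which overlapped in Sis. Of 32851 windows of this length in the same table, 54.9% held at least 1 match on either strand, so a match is common. TTTAT, the core bound by the intestinal factor CDX2, had 2 matches in Lct, 2 in Mgam and 4 in Sis, against 37.3% of all windows with any. GATAA, bound by GATA factors, had 3 matches in Lct, 2 in Mgam and 1 each in Slc2a2 and Slc2a7, against 22.6% of windows. GTTAAT, part of the site bound by HNF1 factors and itself a match to TAAT, had 1 match in Sis, against 6.43% of windows. CACGTG, which reads the same on both strands and is part of carbohydrate response elements, had 1 match in Mgam and 1 in Slc5a1, against 6.02% of windows. The Slc5a1 and Slc2a5 windows were 60.0% and 66.4% G or C, against 31.6% for Sis and a median of 52.4%. Members not named for a motif held 0 matches to it. The shares of windows count those with at least 1 match, so they cannot be set against match numbers, and enrichment was not tested. These matches describe letters only, and binding was not measured.

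The targeted gene was lower in the knockout. The brighter Pdx1 probe set ranged from 5.58 to 6.18 in knockout samples and from 8.16 to 8.98 in controls on the log2 scale, without overlap, and whether it reads the removed exon is not stated in the labels. Array medians lay between 5.23 and 5.27, and all member probe sets read well above them. Marker transcripts of the expected tissue were abundant: the mean of 8 epithelial markers lay between 12.32 and 12.59 and that of 10 villus enterocyte markers between 13.43 and 13.79 over the 8 samples. Transcripts of neighbouring organs were present too, with a mean of 9 exocrine pancreas markers from 12.13 to 14.44 and of 9 stomach markers from 8.67 to 9.62. The stomach mean combines dim and bright markers. In the knockout and control, Atp4a had means of 4.86 and 4.94, and Gkn2 of 13.41 and 13.58. The labels call the samples biological replicates.

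No disaccharidase or sugar transporter passed the test for a change. Of the 7 member probe sets, 0 passed an adjusted p of 0.05 in limma, against 19 of all 45037 (0.0422%). At an unadjusted p under 0.05 there was 1, for Slc2a5, against 7.13% of all probe sets, and an ordinary linear model also called 0. The knockout mean was above the control mean in all 7, by 0.20 or more in 5 and by 0.019 and 0.023 in Mgam and Treh. The median over the 6 genes was 0.22, against 0.0046 over 18193 genes, which were not matched to the members in brightness. Among tissue marker lists, the median was 0.17 for villus enterocyte, 0.21 for smooth muscle, 0.092 for epithelium and -0.17 for exocrine pancreas. Among all genes 51.6% had a change above 0. The knockout and control values overlapped in all 7 member probe sets, whereas 4.43% of all probe sets had groups that did not overlap.

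**Figure D1:**
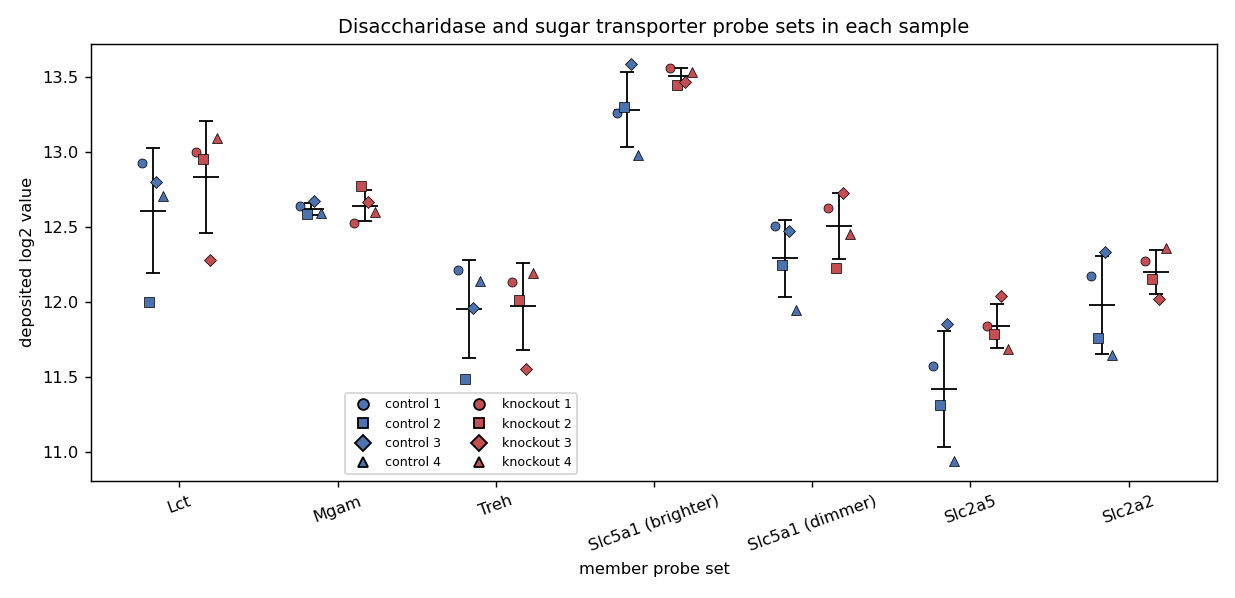
Deposited log2 value (y axis) of each of the 7 member probe sets (x axis) in the 4 control (blue) and 4 knockout (red) samples; the horizontal bar is the group mean, the error bar 1 SD and the marker shape the sample number. Every probe set had overlapping groups, control 2 and knockout 3 were lowest for Lct and Treh, and control 4 was lowest for the transporters; levels of different probe sets cannot be set against each other.

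Among the enzymes, lactase varied most. Lct (probe set 1439479_at) read 12.92, 12.00, 12.80 and 12.71 in controls 1 to 4 and 13.00, 12.95, 12.28 and 13.09 in knockouts 1 to 4. In each group a single sample, control 2 or knockout 3, stood below the others, and 3 of the 4 knockout values lay above the highest control. The mean was 12.83 ± 0.37 for knockout samples and 12.61 ± 0.42 for controls (SD, n = 4 per group). The log2 change of 0.22 had a standard error of 0.22 and a 95% interval from -0.27 to 0.71, with an adjusted p of 0.868 in limma. It rested on those samples: without control 2 it was 0.020, without knockout 3 it was 0.41, and without both, an alternative chosen after seeing the data, it was 0.20.

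Trehalase was nearly level between the groups. Treh (1449430_a_at) read 12.21, 11.49, 11.96 and 12.14 in controls 1 to 4 and 12.13, 12.01, 11.55 and 12.19 in knockouts 1 to 4. The low samples were again control 2 and knockout 3, and no knockout value exceeded the highest control. The change was 0.023, with a 95% interval from -0.37 to 0.41 (adjusted p = 0.988 in limma), and became -0.13 without control 2 and 0.16 without knockout 3.

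Maltase-glucoamylase was the steadiest member. Mgam (1456777_at) read 12.64, 12.59, 12.67 and 12.59 in controls 1 to 4 and 12.53, 12.77, 12.67 and 12.60 in knockouts 1 to 4, so the knockout held both the highest and the lowest value. Its change was 0.019, with a 95% interval from -0.14 to 0.18 (adjusted p = 0.972 in limma), the narrowest interval of the 7. On a linear scale that interval runs from 0.910-fold to 1.13-fold.

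The glucose and galactose transporter read slightly higher in the knockout on both of its probe sets. The brighter Slc5a1 probe set (1419057_at) read 13.26, 13.30, 13.59 and 12.98 in controls 1 to 4 and 13.56, 13.45, 13.47 and 13.53 in knockouts 1 to 4. Knockout values lay within a narrow band, with control 3 above it and the other 3 controls below it. The SD was 0.054 in the knockout and 0.25 in the control, a difference in spread that was not tested. The change was 0.22 with a standard error of 0.11 and a 95% interval from -0.027 to 0.47 (adjusted p = 0.735 in limma). Without control 4 it was 0.12.

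The dimmer Slc5a1 probe set (1455431_at) gave a change of nearly the same size, 0.21, with a 95% interval from -0.098 to 0.53 (adjusted p = 0.786 in limma). It read 12.51, 12.25, 12.47 and 11.95 in controls 1 to 4 and 12.62, 12.22, 12.73 and 12.45 in knockouts 1 to 4. The probe sets differed within the knockout, where knockout 2 and knockout 3 were 0.50 apart on the dimmer one and 0.021 apart on the brighter one, and both had control 4 as the lowest sample. Without control 4 the change on the dimmer one was 0.10, and without knockout 3 it was 0.14.

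The fructose transporter had the largest log2 change of the set, which did not pass the threshold. Slc2a5 (1416639_at) read 11.57, 11.32, 11.85 and 10.94 in controls 1 to 4 and 11.84, 11.79, 12.04 and 11.69 in knockouts 1 to 4. Control 3 lay among the knockout values, and the other 3 controls lay below all of them. The mean was 11.84 ± 0.15 for knockout samples and 11.42 ± 0.39 for controls (SD, n = 4 per group), a change of 0.42 with a standard error of 0.17, or 1.34-fold. The 95% interval, not adjusted for the number of probe sets, ran from 1.03-fold to 1.73-fold, and the adjusted p was 0.676 in limma. Without control 4 the change was 0.26.

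The basolateral hexose transporter also had a knockout mean above the control mean. Slc2a2 (1449067_at) read 12.17, 11.76, 12.34 and 11.65 in controls 1 to 4 and 12.27, 12.16, 12.02 and 12.36 in knockouts 1 to 4. Controls 2 and 4 lay below every knockout sample and controls 1 and 3 among them. The change was 0.22, with a 95% interval from -0.11 to 0.55 (adjusted p = 0.788 in limma), and 0.11 without control 4. Slc2a2 is also known from pancreatic beta cells. Control 4, its lowest sample, had the highest mean of 6 islet markers, at 8.02 against 5.67 to 6.80 in the other 7 samples. That mean includes Gcg and Pyy, and whether their signal came from islets or from the intestine was not tested. It also includes Slc30a8 and G6pc2, whose group means, from 3.26 to 3.78, lay below the array medians. The part of islet transcripts in the Slc2a2 values was not tested.

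**Figure D2:**
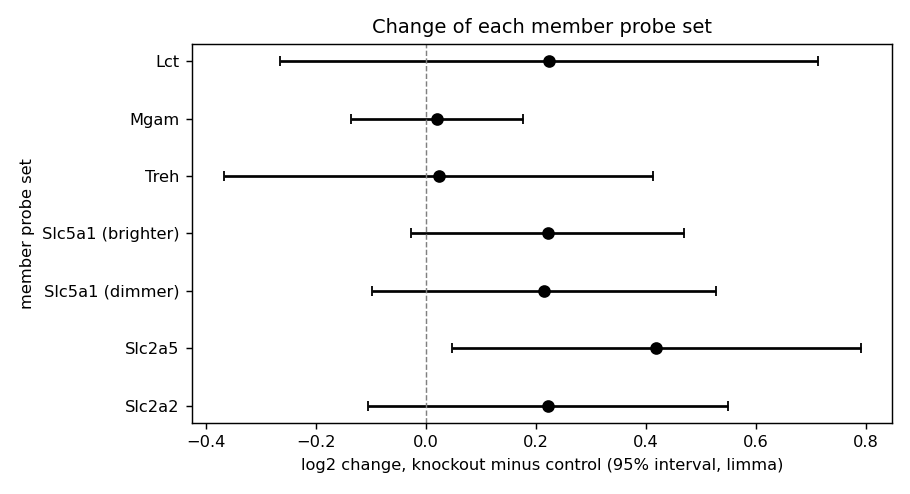
Log2 change, knockout minus control (x axis), of each member probe set (y axis), with points for the estimate and bars for the 95% interval from limma, not adjusted for the number of probe sets. All 7 points lie above 0, and every interval but that of Slc2a5, which runs from 0.046 to 0.79, includes 0.

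The fructose transporter was set against the other transporters to ask whether it had moved more than they did. Per sample, the Slc2a5 value minus the Slc5a1 value was 0.20 higher in the knockout (95% interval from -0.10 to 0.50, exact permutation p = 0.171, adjusted over the 2 pairs 0.229). For Slc2a5 minus Slc2a2 the difference was also 0.20 (95% interval from -0.18 to 0.57, exact permutation p = 0.229, adjusted 0.229). Neither difference passed, and the intervals include differences of up to 0.50 and 0.57. With 1 sample left out, the difference from Slc5a1 ran from 0.12 (without knockout 3) to 0.26 (without knockout 4) and that from Slc2a2 from 0.069 to 0.30 (without the same samples). The smallest p that this two-sided test can give with 4 against 4 samples is 0.0286.

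Most markers of the epithelium also had knockout means somewhat above the control means, though none passed. Of 8 epithelial markers 7 had changes above 0 (median 0.092), the exception being Elf3 at -0.20. Of 10 villus enterocyte markers 9 had changes above 0 (median 0.17), with 0 past the threshold in limma in either list. Vil1, whose promoter drives Cre, had a change of 0.19 (adjusted p = 0.660 in limma). Its groups did not overlap, as was so for 4.43% of all probe sets. Of the villus markers, Fabp1, Fabp2, Mttp, Anpep and Krt20 also had every knockout sample above every control. Alpi, at -0.22, had every knockout sample below every control. The mean of the epithelial markers ranged from 12.33 to 12.59 in the knockout and from 12.32 to 12.46 in the control, and that of the villus markers from 13.55 to 13.79 and from 13.43 to 13.59. Relative to the epithelial mean of the same sample, Slc2a5 was 0.35 higher in the knockout (exact permutation p = 0.20), Lct 0.16 (p = 0.543), and Slc5a1 and Slc2a2 0.15 each (p = 0.371 and 0.514). Mgam and Treh then had values of -0.049 and -0.046 (exact permutation p = 0.543 and 0.771), and after adjustment over the 6 genes the lowest of these p-values was 0.651. Without control 4 the epithelial-relative value was 0.18 for Slc2a5, 0.044 for Slc5a1 and 0.035 for Slc2a2. Relative to the villus marker mean the values were 0.25 for Slc2a5, 0.060 for Lct, 0.058 for both Slc5a1 and Slc2a2, and -0.14 for both Mgam and Treh. All 8 smooth muscle markers also had changes above 0 (median 0.21). Their list means ran from 10.003 to 10.48 in the knockout and from 9.95 to 10.13 in the control. The part of these markers in the member values was not tested beyond the relative values given.

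Across the 8 samples some members varied together. Over 15 gene pairs, Lct and Treh had a Pearson's r of 0.93 (exact permutation p = 0.00585, adjusted 0.0415) and a Spearman's rho of 0.67 (exact permutation p = 0.0831, adjusted 0.312). Without control 2 and knockout 3 this relation was weaker, with r at 0.35 over 6 samples. For each pair, the 2 samples left out were those farthest from the median of the first-named gene. Leaving them out narrows the range of that gene. With the group means removed, r was 0.97 for Lct and Treh, 0.83 for Slc5a1 and Slc2a5 and 0.80 for Slc5a1 and Slc2a2. Slc5a1 and Slc2a5 had an r of 0.89 (exact permutation p = 0.00610, adjusted 0.0415) and a rho of 0.79 (p = 0.0279, adjusted 0.184), and r was 0.70 without controls 1 and 4. For Slc5a1 and Slc2a2 r was 0.85 (exact permutation p = 0.00831, adjusted 0.0415) and rho 0.76 (p = 0.0368, adjusted 0.184), with r at 0.94 without controls 1 and 4. Slc2a5 and Slc2a2 did not pass, with an r of 0.76 (exact permutation p = 0.0286, adjusted 0.107) and a rho of 0.45 (p = 0.267, adjusted 0.649), and r turned to -0.42 without controls 2 and 4. Lct and Slc2a2 did not pass either, with an r of 0.67 (exact permutation p = 0.0556, adjusted 0.167) and a rho of 0.76 (p = 0.0368, adjusted 0.184), and r was 0.72 without control 2 and knockout 3. None of the remaining pairs passed by r after adjustment, and none of the 15 pairs passed by rho. All values of a sample come from the same array and tissue piece, and the labels give no array date by which batches could be separated.

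**Figure D3:**
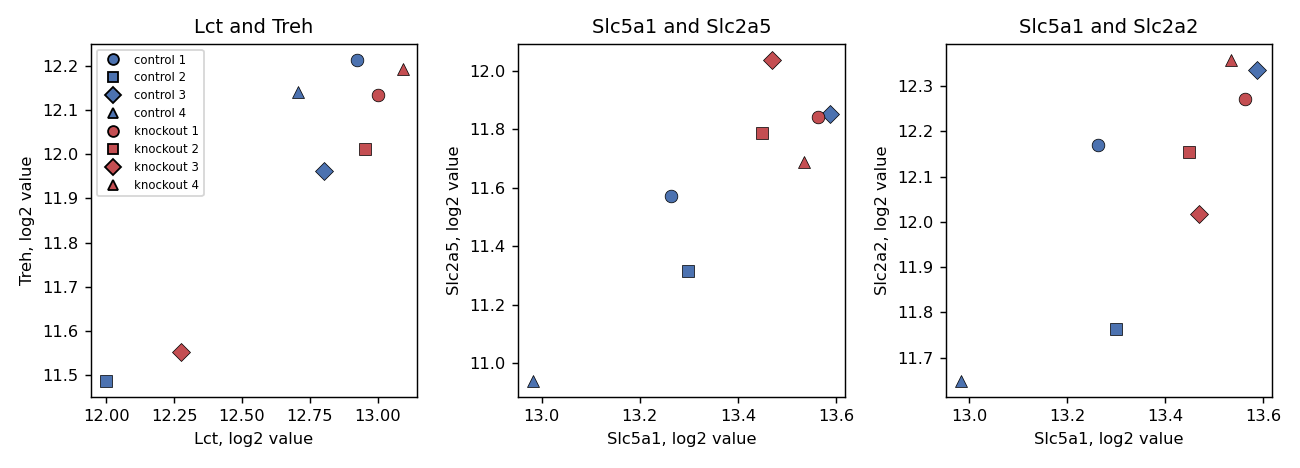
Deposited log2 values of Treh against Lct, Slc2a5 against Slc5a1 and Slc2a2 against Slc5a1, with 1 point per sample, controls in blue and knockouts in red, and the marker shape giving the sample number. Control 2 and knockout 3 stand apart for Lct and Treh, and control 4 has the lowest value of all 3 transporters.

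Some samples were high for one member and low for another. Knockout 3 had the highest Slc2a5 value of the 8 samples, 0.41 above the gene's mean, but was 0.44 below the mean for Lct and 0.41 below for Treh. Control 4 was 0.69 below the mean for Slc2a5 and 0.41 below for Slc5a1, yet 0.18 above it for Treh. Control 2 was below the mean for all 6 genes. Within groups, 5 of the 6 genes had an SD above 0.11, the median of 873 genes with a mean of at least 11, the SDs being 0.40 for Lct, 0.31 for Treh, 0.29 for Slc2a5, 0.25 for Slc2a2 and 0.18 for Slc5a1. Mgam, at 0.079, was below that median.

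Transcripts of neighbouring organs also differed between these samples. The stomach marker mean was highest in control 2, at 9.62, while it was 9.10 in knockout 3 and 9.26 in control 3, and 8.67 to 8.91 in the others. The exocrine pancreas mean was 14.44 in control 4 and 14.03 in knockout 3, 13.11 to 13.83 in 5 others and 12.13 in control 3, which had the highest value on the brighter Slc5a1 probe set; on the dimmer one knockout 3 was highest. All 9 stomach and all 9 exocrine pancreas markers had knockout means below the control means, with 0 past the threshold in limma in either list. Of the stomach markers, Atp4a (4.86 in the knockout, 4.94 in the control) and Cblif (4.55 and 4.80) read below the array medians. Atp4b changed by only -0.016. Markers of a list were read in the same tissue pieces, so their signs are not separate observations. Ranges overlapped for both lists: the stomach mean ran from 8.77 to 9.10 in the knockout and from 8.67 to 9.62 in the control, and the pancreas mean from 13.11 to 14.03 and from 12.13 to 14.44. Their part in the member values was not tested.

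**Figure D4:**
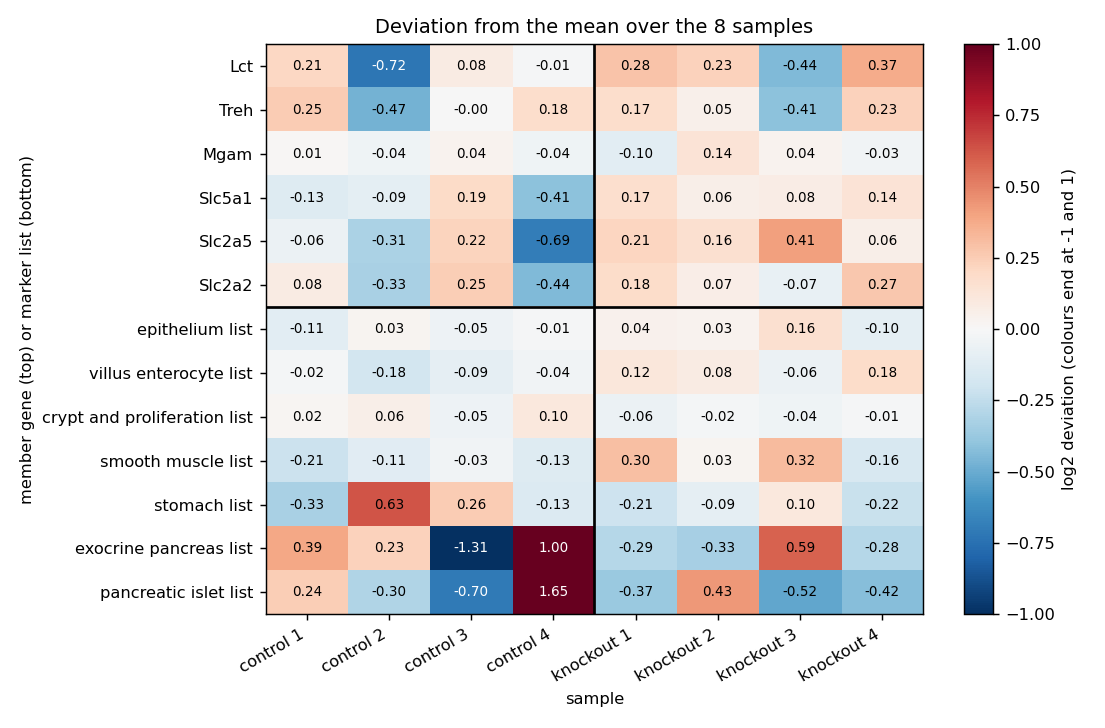
Log2 deviation of each sample (x axis) from the mean over the 8 samples, for the 6 member genes (top) and for the means of 7 marker lists (bottom); red is above and blue below the mean, and colours end at -1 and 1. Control 2 and knockout 3 are low for Lct and Treh, and control 4 is low for the 3 transporters. The stomach list is highest in control 2 and also above its mean in control 3 (0.26) and knockout 3 (0.10). Both pancreas lists are highest in control 4. The exocrine pancreas list is also above its mean in knockout 3 (0.59), control 1 (0.39) and control 2 (0.23).

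Other Slc2a and Slc5a transporters did not pass either. Of 16 such genes, not all of them hexose transporters, 10 had changes above 0 and 6 at or below it (median 0.086). In limma 0 rose or fell. The ones with the smallest p were the sodium-coupled inositol transporters Slc5a11, at 0.27 (adjusted p = 0.721 in limma), and Slc5a3, at -0.24 (adjusted p = 0.808), followed by the insulin-responsive glucose transporter Slc2a4, at 0.12 (adjusted p = 0.815). Slc5a4b, a relative of Slc5a1 singled out after its values were seen, read 10.74, 8.67, 10.68 and 10.62 in controls 1 to 4 and 11.51, 11.03, 9.32 and 11.33 in knockouts 1 to 4. Its lowest samples were control 2 and knockout 3, as for Lct and Treh, and its change of 0.62 did not pass (adjusted p = 0.848 in limma).

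Known regulators of the members gave changes on both sides of 0. Of 18 measured factors and sugar-sensing genes 11 were above 0 and 7 below (median 0.038), with 0 called in limma. Hnf4g, a nuclear receptor of the enterocyte, had 0.28 (adjusted p = 0.561 in limma), and each knockout sample, from 10.15 to 10.39, was above each control, from 9.83 to 10.10. Txnip, a glucose-responsive inhibitor of glucose uptake, had 0.29 (adjusted p = 0.614 in limma), with groups that overlapped. Tas1r2, a subunit of the sweet taste receptor, had -0.24 (adjusted p = 0.502 in limma) at 4.88 in the knockout and 5.12 in the control, both below the array medians. Cdx2, which binds the Sis promoter, had 0.064 (adjusted p = 0.888 in limma).

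Among genes of fructose and glucose metabolism in the enterocyte, all 9 measured changes were above 0 (median 0.27) and 0 passed in limma. Pck1, of gluconeogenesis, had 0.87 (adjusted p = 0.599 in limma), and Glyctk and Tkfc, of fructose breakdown, had 0.20 and 0.35 (adjusted p = 0.737 and 0.739).

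Outside these lists, the genes whose pattern over the 8 samples was most like the mean of the 6 members were Lztr1 (r = 0.99, rho = 0.83), Gnpda1 (r = 0.98, rho = 0.83) and Amotl2 (r = 0.98, rho = 0.93). They were the top 3 of 8093 genes with a mean of at least 7, of which 40 had an r over 0.9. Their own changes were 0.097, 0.10 and 0.066 and did not pass in limma (adjusted p = 0.799, 0.842 and 0.868).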

How the data were processed

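The authors deposited log2 expression values, 1 for each probe set on each array. The submitters' processing notes list Partek 6.4 without saying what it did, and the steps from scanner signal to these values (background, summarisation, normalization) are not stated in the labels. The scale was read from the values. Arrays had nearly equal medians, so a change common to all transcripts would be invisible. Of 45101 probe sets, 64 array controls were left out. Probe sets were named from the platform annotation (34945 probe sets with 1 symbol, 932 with several, 9160 with none).

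Groups came from the titles. Knockout minus control was fitted with lmFit and eBayes of limma 3.58.1 (R 4.3.3), with no filter or block, two-sided, with Benjamini-Hochberg adjustment over 45037 probe sets at 0.05. Intervals are 95% intervals; those of the pair differences assume equal variances in both groups. For single values per sample, two-sided exact permutation tests used the brightest probe set of a gene, adjusted over the genes or pairs. The number of arrays limits the precision. The members and lists were chosen with earlier results of these data known. All member probe sets are reported; of the pathway lists, genes past the threshold or up to 3 with the smallest p are named, and Cdx2 and Slc5a4b were added. Alternatives were another scaling, filter, floor, prior, weighting or model, a replicate block, and each sample left out. Scripts were tested on simulated data. Pairs of same-numbered samples had deviations from the group means that correlated between -0.18 and 0.076 across probe sets, so the numbers were not taken as pairs. Figures were drawn with matplotlib 3.10.9.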

Additional observations from a re-analysis of the deposited data

How the results depend on the processing

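In every alternative run, 0 member probe sets were called. Over all probe sets, 19 were called in the reported fit, 4 with values under 5 set to 5, 2 in an ordinary linear model, 29 at an adjusted p under 0.10, and 13 to 20 with 1 sample left out. With the replicate number as a block 24 were called, and no control sample's deviations correlated best with its own number in the knockout; the block changed no member's call (Slc2a5: adjusted p = 0.774 in limma). The changes of Lct, Slc5a1, Slc2a5 and Slc2a2 kept their direction in all alternatives. Those of Mgam and Treh turned to -0.013 and -0.028 with quantile normalization. With 1 sample left out, Mgam ran from -0.024 to 0.058 and Treh from -0.13 to 0.16. Without control 2 and knockout 3 together, an alternative chosen after seeing the data, Mgam had -6.67e-04. The cause of these turns was not tested. Relative to the epithelial mean, leaving out 1 sample gave -0.069 to 0.38 for Lct and -0.22 to 0.14 for Treh, so both turned. It gave 0.18 to 0.50 for Slc2a5, 0.044 to 0.26 for Slc5a1, 0.035 to 0.28 for Slc2a2 and -0.092 to -0.0068 for Mgam. The differences planned between Sis and Lct and between Sis and Mgam were not run, because Sis matched no probe set. The table gave no detection calls, so the share of background in dim probe sets is unknown.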
